A study of Mus musculus with 8 samples.

Results

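The genes described here are 10 mouse imprinted genes at germline-methylated loci: *Plagl1*, *Zrsr1*, *Impact*, *Grb10*, *Igf2r*, *Airn*, *Gnas*, *Nespas*, *H13* and *Zdbf2*. They were taken by name, by a rule that uses no measured value, although the choice was made with earlier results of these data known. All 10 were found among the 54281 genes of the deposited tables. Of these, 9 were matched by symbol and *Nespas* by its gene ID, since the tables list it as *Gnasas1*. RNA-seq was done on epiblast-like cells (EpiLCs), a culture model of the formative epiblast, of 4 *Tet1* KO lines (KO1, KO9, KO15, KO25) and 4 WT lines (WT7, WT12, WT17, WT34), with 1 library per line. All 8 lines are male embryonic stem cell (ESC) lines, each derived from a separate blastocyst of the B6129S6F1 Tet1<tm1Koh> background, so all carry the same hybrid background and differ by genotype in the *Tet1* allele. Both groups were adapted to 2iL medium and then converted for 2 days in N2B27 medium containing 12 ng/ml bFGF and 1% KOSR, and RNA was taken on that day. The names of the data columns end in b1 (KO1, KO9, WT7, WT17) or b2 (KO15, KO25, WT12, WT34), so each genotype has 2 lines with each suffix, and the sources used here do not say what the suffix stands for.

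An imprinted gene is transcribed mainly from the copy inherited from one parent. The mark that tells the copies apart is DNA methylation laid down in only one of the germlines, at a control region that keeps its methylation after fertilization, and TET1 is a dioxygenase that oxidizes 5-methylcytosine. Zinc finger proteins such as ZFP57 hold that methylation in place in the early embryo and in ESCs by recognizing a methylated TGCCGC hexamer. At several of these loci the unmethylated copy makes a noncoding antisense transcript (*Airn*, *Nespas*) or an intronic retrogene (*Zrsr1*, *Mcts2*) while the host or sense gene is read from either or the other copy. RNA totals per gene, as measured here, do not separate the parental copies.

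RefSeq promoter windows (build GRCm38.p6) were matched by symbol for 8 of the 10 genes and not for *Impact* and *Nespas*. Of each window, the 250 bases before the annotated start were used, giving 13 windows, of which 2 of *Gnas* overlap. The 2 windows of *Zdbf2*, the window with the most CG (*Grb10*) and that of *Plagl1* are shown because they differ widely in CG content and hold every match to TGCCGC among the 13. Capitals mark each CG, the dinucleotide that is methylated, and each sequence runs 5′ to 3′ on the strand of its gene.
*Zdbf2*, upstream start, chr1:63200108-63200357, plus strand: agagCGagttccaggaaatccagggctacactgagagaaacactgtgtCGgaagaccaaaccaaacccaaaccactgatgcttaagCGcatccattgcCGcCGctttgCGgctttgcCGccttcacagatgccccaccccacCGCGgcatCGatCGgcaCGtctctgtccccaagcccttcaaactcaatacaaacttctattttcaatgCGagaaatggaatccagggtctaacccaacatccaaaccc
*Zdbf2*, chr1:63273019-63273268, plus strand: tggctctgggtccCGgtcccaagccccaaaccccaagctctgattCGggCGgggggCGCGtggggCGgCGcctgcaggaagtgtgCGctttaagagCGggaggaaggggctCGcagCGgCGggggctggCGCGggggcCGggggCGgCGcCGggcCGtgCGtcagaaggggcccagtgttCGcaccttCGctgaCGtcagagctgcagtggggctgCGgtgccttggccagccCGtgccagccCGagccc
*Grb10*, chr11:12037421-12037670, minus strand: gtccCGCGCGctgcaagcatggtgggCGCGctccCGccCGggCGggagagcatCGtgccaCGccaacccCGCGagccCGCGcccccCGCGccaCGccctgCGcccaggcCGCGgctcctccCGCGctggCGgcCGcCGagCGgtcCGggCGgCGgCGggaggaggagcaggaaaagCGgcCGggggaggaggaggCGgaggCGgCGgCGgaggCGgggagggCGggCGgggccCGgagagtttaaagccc
*Plagl1*, chr10:13090582-13090831, plus strand: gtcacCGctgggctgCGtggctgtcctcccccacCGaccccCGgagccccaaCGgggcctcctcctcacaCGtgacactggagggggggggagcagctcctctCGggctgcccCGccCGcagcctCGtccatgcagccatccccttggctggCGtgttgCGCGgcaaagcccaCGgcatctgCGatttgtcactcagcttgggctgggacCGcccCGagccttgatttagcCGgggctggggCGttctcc

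CG dinucleotides in these windows numbered 13 at the upstream start of *Zdbf2*, 26 at its other start, 40 at the *Grb10* start shown and 19 at *Plagl1*, against a median of 6 over all 32851 mouse windows. Of the 13 windows, 12 were above that median, the exception being *Airn* with 2 CG, while *Igf2r* had 27 and *Zrsr1* 8. The hexamer TGCCGC, searched on both strands, occurred in 2 of the 13 windows, 3 times at the upstream start of *Zdbf2* and 1 time at *Plagl1*, and 8.68% of all windows held it. A match is a description of the letters only, and no methylation or binding was measured here. The upstream *Zdbf2* window overlaps the first bases of *Platr12*, a noncoding gene on the same strand that ends 65.3 kb before the annotated start of *Zdbf2*.

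The deposited counts per library summed to between 13916576 and 23680839, and pairwise correlations of log2 CPM (counts scaled to library size) across genes ran from 0.941 to 0.973. *Tet1* itself averaged 750 ± 132 CPM over WT lines and 47.9 ± 7.47 CPM over KO lines (SD, n = 4 each), a log2 difference of −3.97 (adjusted p = 2.09e-05, edgeR). Markers of the formative epiblast were present in every line, summing to 4049 to 4785 CPM per KO line and 3921 to 4474 CPM per WT line. The largest part of that sum was *Dnmt3b*, which averaged 2211 CPM over KO and 2104 CPM over WT lines. Markers of naive ESCs, the state before conversion, were also present in every line. Their 8 genes summed to 204 to 237 CPM per KO line and 113 to 275 CPM per WT line. How complete the conversion was in each line was not tested. The summed levels of markers of other cell types overlapped between the genotypes for feeder fibroblasts (10 genes, 63.2 to 86.5 CPM against 68.0 to 84.9 in WT, with *Postn* at 0), trophoblast (6 genes, 39.1 to 58.6 and 33.6 to 49.9), extraembryonic endoderm (8 genes, 12.2 to 17.1 and 8.85 to 15.2) and germ cells (5 genes, 52.1 to 69.6 and 47.4 to 62.0). The sum for extraembryonic endoderm came mostly from *Dab2*, at 8.28 CPM over KO and 7.64 CPM over WT lines. Its 6 markers tested all had positive log2 differences, and 2 of its 8 markers were higher in every KO line than in any WT line, *Sox7* (0.727 to 1.46 CPM against 0.188 to 0.425, log2 difference 2.03, unadjusted p = 0.00079, adjusted p = 0.308, edgeR) and *Sox17* (0.328 to 0.467 CPM against 0.0471 to 0.22, below the filter). Both were low, and 4.19% of all genes tested had no overlap between genotypes, in either direction. The part of these cell types in the results below was not tested. In bulk RNA, fewer cells that express a gene and less of its RNA per cell cannot be told apart.

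Levels of the 10 genes were spread over more than 2 orders of magnitude in TPM, a unit that corrects for transcript length and so allows comparison between genes. *Gnas*, which encodes the stimulatory G protein alpha subunit, had the highest level at 105 ± 16.5 TPM (SD, n = 8 lines), and *Impact*, whose product restrains the stress kinase GCN2, followed at 66.8 ± 14.7 TPM. *Grb10*, an adaptor that dampens insulin and IGF receptor signalling, had 29.1 ± 13.8 TPM, and *Igf2r*, the receptor that clears IGF2 into lysosomes, had 18.5 ± 5.48 TPM. A middle group held *Zdbf2*, a zinc finger gene, at 7.52 ± 4.90 TPM, *H13*, the gene of signal peptide peptidase, at 5.44 ± 1.85 TPM, and *Zrsr1*, a retrogene related to splicing factor U2AF1, at 4.84 ± 1.40 TPM. *Nespas* had 1.92 ± 0.675 TPM. The growth-regulating zinc finger gene *Plagl1* was low (0.393 ± 0.225 TPM), and *Airn* (0.305 ± 0.150 TPM) was near the floor.

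Neighbours in this order were separated in 8 of 8 lines only for *Gnas* above *Impact*, *Zrsr1* above *Nespas* and *Nespas* above *Plagl1*. The gene with the higher mean had the higher TPM in 7 of 8 lines for *Impact* over *Grb10* and for *Igf2r* over *Zdbf2*, and in 6 of 8 for *Grb10* over *Igf2r* and for *Zdbf2* over *H13*. For *H13* over *Zrsr1* it was 5 of 8 lines and for *Plagl1* over *Airn* 4 of 8, so these pairs are not ordered beyond their spread.

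**Figure D1:**
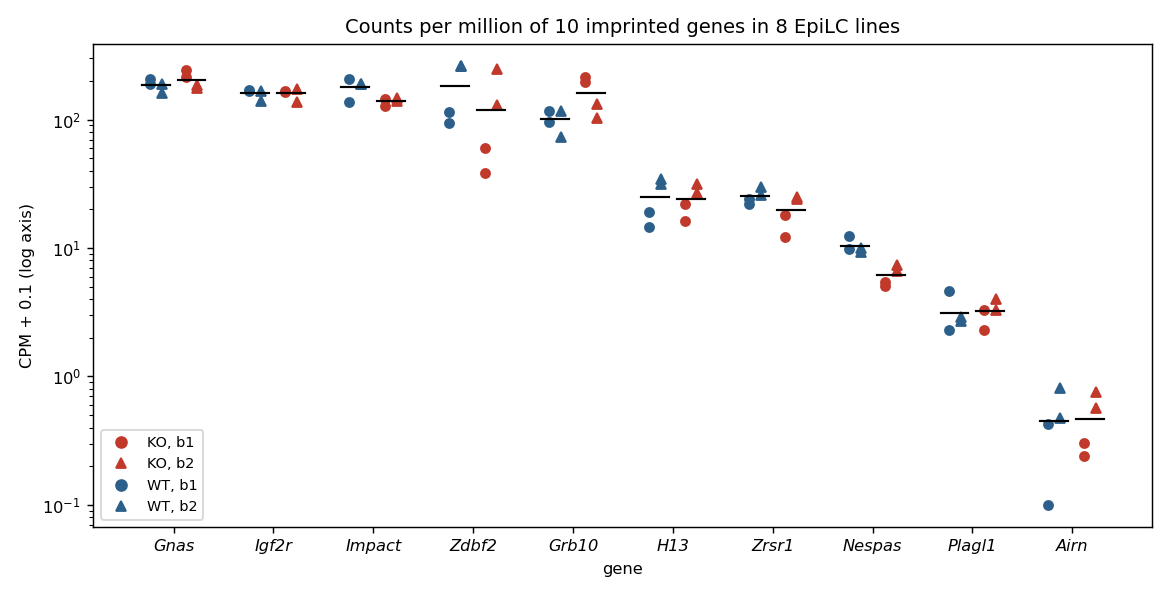
CPM plus 0.1 on a log axis for the 10 imprinted genes in the 8 EpiLC lines; red is KO, blue is WT, circles are b1, triangles are b2, and black bars are group means. All KO points of *Nespas* lie below all WT points, and the b1 points of *Zdbf2* and *H13* lie below the b2 points.

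KO and WT lines were then compared to ask whether the RNA of these genes differs without TET1. By edgeR's quasi-likelihood test on the counts, 9 of the 10 genes passed the filter on low counts and 0 of the 9 were called at an adjusted p under 0.05, where 0.0405% of the 17272 genes tested were called. An unadjusted p under 0.05 was reached by 3 of 9 (*Impact*, *Grb10* and *Nespas*), against 5.62% of all genes tested. KO and WT lines did not overlap in 1 of 9 (*Nespas*), against 4.19% of all genes. The median log2 fold change of the 9 genes was −0.04, with 3 positive and 6 negative, and that of all genes tested was −0.0044, with 8467 positive and 8805 negative. With the column suffix as a block, 0 of 9 genes were called (0.162% of all genes) and 5 of 9 had an unadjusted p under 0.05 (11.9% of all genes), the 2 added being *Zrsr1* and *Zdbf2*. DESeq2 called 1 of 9, *Nespas*, and 0.608% of all genes.

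**Figure D2:**
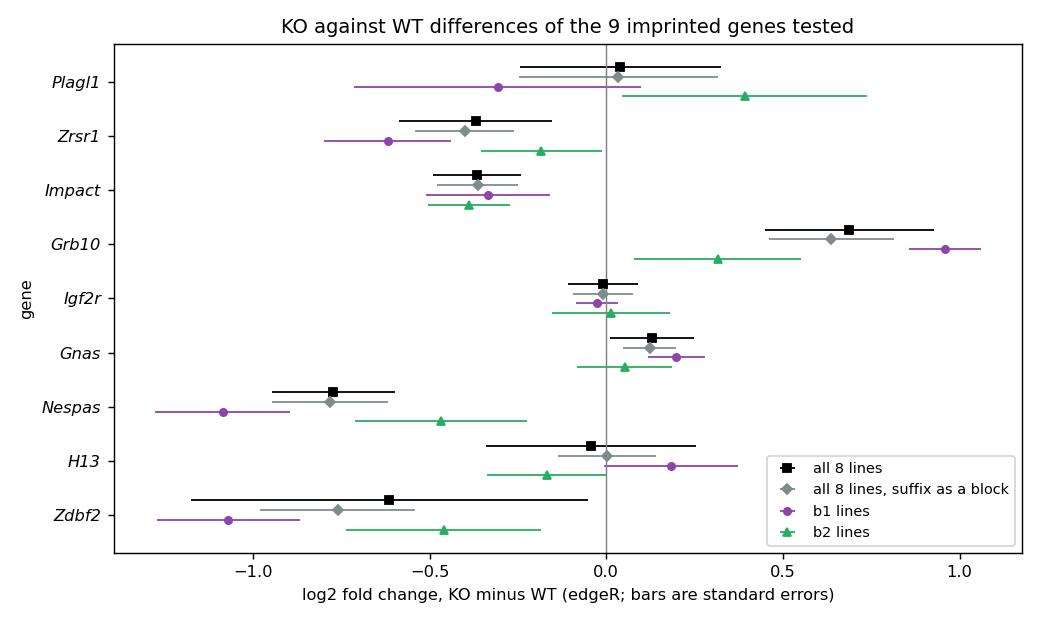
Log2 fold change of KO against WT (horizontal axis, edgeR, bars are standard errors) for the 9 genes tested, over all 8 lines, with the suffix as a block, and within b1 and b2 alone. *Nespas* and *Zdbf2* lie below 0 and *Grb10* above 0 in each fit, while *H13*, *Plagl1* and *Igf2r* lie on either side of 0.

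*Nespas* RNA was lower in every KO line than in any WT line. *Nespas* (ENSMUSG00000086537.7, chr2:174281237-174295436, minus strand in GENCODE M21, mm10) is a noncoding antisense RNA of the *Gnas* cluster, transcribed from the paternal copy. Its CPM were 4.97 in KO1, 5.36 in KO9, 6.49 in KO15 and 7.22 in KO25, and 12.2 in WT7, 9.13 in WT12, 9.75 in WT17 and 9.91 in WT34. The KO mean was 6.01 ± 1.03 CPM and the WT mean 10.2 ± 1.35 CPM (SD, n = 4 lines each), which is 1.71-fold higher in WT. The log2 fold change was −0.77 (standard error 0.17, 95% interval −1.17 to −0.38), with an unadjusted p of 0.0015 and an adjusted p of 0.358 from edgeR. It was −1.09 within b1 and −0.47 within b2, and the difference between those 2 effects had an unadjusted p of 0.0626 and an adjusted p of 1.00 (edgeR). DESeq2 gave −0.78 with an adjusted p of 0.0102, and over the 18 alternatives tried the adjusted p ran from 0.0102 to 0.999.

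*Gnas* (ENSMUSG00000027523.20, chr2:174284320-174346744, plus strand) did not pass the test and its groups overlapped. Its CPM were 214, 243, 178 and 185 in lines KO1, KO9, KO15 and KO25, and 191, 189, 208 and 161 in WT7, WT12, WT17 and WT34. The difference of KO from WT was, in log2 units, 0.13 (standard error 0.12, 95% interval −0.14 to 0.40, adjusted p = 0.998, edgeR). The 2 genes overlap on opposite strands over 11117 bp, of which 988 are exonic in both, 31.4% of the exonic bases of *Nespas*. Of all 31-base words in *Nespas* transcripts, 29.6% also occur in reverse complement in *Gnas* transcripts. The libraries were made with a stranded kit but the sources used here do not state the strand setting of the quantification, so a share of *Nespas* and *Gnas* reads could not be told apart if strand was not used.

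The ratio of *Gnas* to *Nespas* was higher in all 4 KO lines than in all 4 WT lines. *Gnas* CPM were 43.1, 45.3, 27.4 and 25.6 times those of *Nespas* in KO1, KO9, KO15 and KO25, and 15.6, 20.7, 21.3 and 16.3 times in WT7, WT12, WT17 and WT34. The b1 KO lines had the highest ratios. The difference in mean log2 ratio (pseudocount of 0.1 CPM) was 0.89, with p = 0.0286 by a two-sided exact permutation test over 70 assignments, the smallest p that 4 against 4 lines can give, and 0.114 after Benjamini-Hochberg adjustment over the 4 pairs compared. It was 1.26 within b1 and 0.52 within b2.

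*Igf2r* RNA differed by less than the spread between lines, and its antisense RNA *Airn* was too low for the test over all lines. *Igf2r* (ENSMUSG00000023830.14, chr17:12682406-12769664, minus strand) had 163, 168, 137 and 172 CPM in lines KO1, KO9, KO15 and KO25, and 169, 168, 167 and 140 CPM in lines WT7, WT12, WT17 and WT34. The groups covered the same range, with 1 lower line in each. KO minus WT on the log2 scale was −0.01 (standard error 0.10, 95% interval −0.23 to 0.21, adjusted p = 0.998, edgeR). *Igf2r* also had the narrowest spread of the 9 genes tested, with a within-group SD of 0.14 on the log2 scale. Its TPM were less even than its CPM, from 13.2 to 29.9 TPM with WT7 highest, because the quotient of CPM to TPM, which follows the transcript length assigned to the gene, varied 2.25-fold between lines.

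*Airn* (ENSMUSG00000078247.4, chr17:12741311-12860136, plus strand) starts inside *Igf2r* on the other strand, and its transcription represses *Igf2r* on the paternal copy in embryonic tissues. It had 3, 4, 9 and 9 counts in KO1, KO9, KO15 and KO25, and 0, 9, 7 and 10 counts in WT7, WT12, WT17 and WT34. These are 0.141, 0.20, 0.467 and 0.656 CPM in the KO lines and 0, 0.375, 0.33 and 0.708 CPM in the WT lines. The genotypes overlapped, while every b1 line (0 to 0.33 CPM) was below every b2 line (0.375 to 0.708 CPM). The gene did not pass the filter on low counts over all lines. It passed in b2 alone, with a log2 difference of 0.088 (standard error 0.63, adjusted p = 0.999, edgeR). Its limit of 3 counts corresponds to 0.165 CPM in WT7, which covers counting error only.

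The 2 genes overlap over 28354 bp and share no exonic base. *Igf2r* counts were 1158, 838, 294 and 262 times those of *Airn* in KO1, KO9, KO15 and KO25, and 448, 508 and 197 times in WT12, WT17 and WT34. In WT7 the ratio was at least 1026, taking 3 counts in place of the 0 of that library. The difference in mean log2 ratio was −0.24 (p = 0.771, exact permutation test, adjusted p = 0.771), with a sign that depended on single lines. It was 0.40 without WT7 and 0.0091 without KO25. Its size also depended on the pseudocount, at −0.87 with 0.01 CPM and −0.033 with 1 CPM, and it was −0.56 in TPM.

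**Figure D3:**
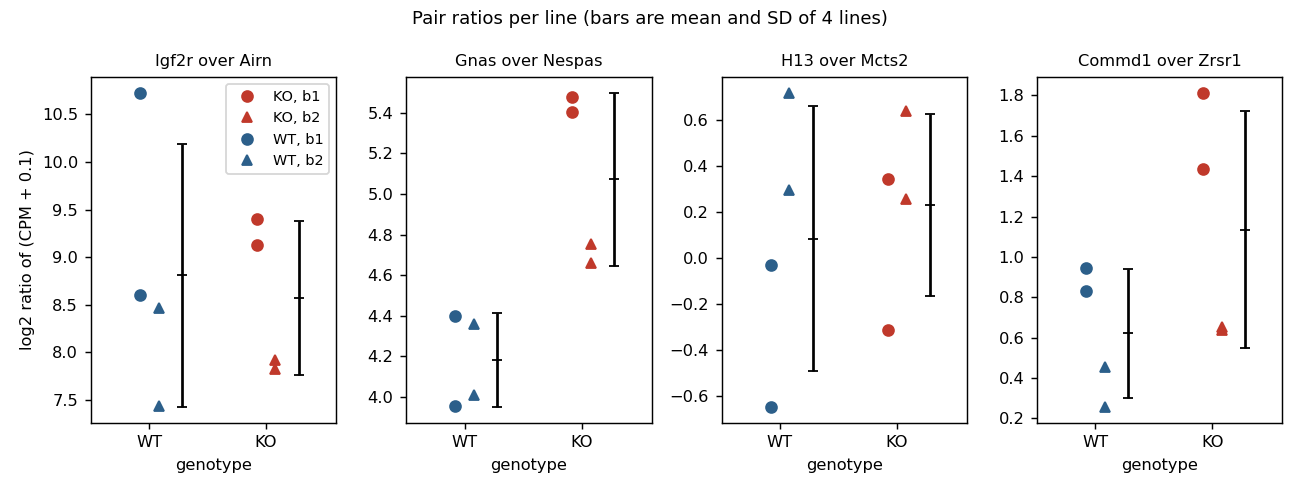
Log2 ratio of (CPM + 0.1) for each of the 4 pairs in the 8 lines, WT in blue and KO in red, circles b1 and triangles b2; black bars are mean and SD of 4 lines. The 4 KO points of *Gnas* over *Nespas* lie above the 4 WT points, and the groups overlap for the other 3 pairs.

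*H13* and *Zrsr1* form the pairs in which an imprinted retrogene sits inside a host gene. *Mcts2*, a paternally expressed retrogene, lies inside *H13* (ENSMUSG00000019188.16, chr2:152669461-152708670, plus strand) on the same strand, with no exon shared. *H13* had 21.9, 16.0, 31.3 and 26.8 CPM in lines KO1, KO9, KO15 and KO25, and 14.4, 34.1, 18.9 and 31.5 CPM in lines WT7, WT12, WT17 and WT34. The genotypes overlapped, and the low values were those of the b1 lines in both. The log2 fold change was −0.04 (standard error 0.30, 95% interval −0.71 to 0.62) for *H13* and −0.13 (standard error 0.16) for *Mcts2*, each with an adjusted p of 0.998 (edgeR). *H13* counts were between 0.804 and 1.56 times those of *Mcts2* in KO and between 0.636 and 1.65 times in WT, so the ratio of host to retrogene overlapped as well (difference in mean log2 ratio 0.15, p = 0.743, exact permutation test). The sign of that difference rested on WT7, without which it was −0.097. In TPM, *Mcts2* was 2.45-fold higher than its host.

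*Zrsr1* (ENSMUSG00000044068.7, chr11:22972005-22976496, plus strand) lies inside *Commd1*, on the other strand. It had 12.2, 17.9, 24.7 and 24.1 CPM in lines KO1, KO9, KO15 and KO25, and 24.0, 29.7, 22.1 and 25.9 CPM in lines WT7, WT12, WT17 and WT34. The genotypes overlapped over all lines, while within each suffix both KO lines were below both WT lines. The difference of KO from WT was, in log2 units, −0.37 (standard error 0.22, 95% interval −0.86 to 0.12, adjusted p = 0.976, edgeR) and −0.40 with the suffix as a block (unadjusted p = 0.0174, adjusted p = 0.310). It was −0.62 within b1 and −0.18 within b2, and −0.19 without KO1, the line with the lowest value. *Commd1*, which takes part in copper handling and protein sorting, differed by 0.11 on the log2 scale (standard error 0.12, adjusted p = 0.998).

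*Commd1* counts were 3.53, 2.72, 1.56 and 1.58 times those of *Zrsr1* in KO1, KO9, KO15 and KO25, and 1.78, 1.19, 1.93 and 1.37 times in WT7, WT12, WT17 and WT34. The genotypes overlapped through the b2 KO lines. The difference in mean log2 ratio was 0.51 (p = 0.20, exact permutation test, adjusted p = 0.40), 0.74 within b1 and 0.29 within b2. The 2 genes share 412 exonic bases on opposite strands, and 7.97% of the 31-base words of *Zrsr1* occur in reverse complement in *Commd1*, so the limit on strand given for *Nespas* applies here too.

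*Impact* and *Grb10* had opposite signs. *Impact* (ENSMUSG00000024423.6, chr18:12955852-12992950, plus strand), paternally expressed, had 145, 128, 147 and 140 CPM in lines KO1, KO9, KO15 and KO25, and 207, 188, 137 and 189 CPM in lines WT7, WT12, WT17 and WT34. WT17 lay within the KO range and the other 3 WT lines lay above it. The KO mean was 140 ± 8.59 CPM and the WT mean 180 ± 30.2 CPM (SD, n = 4 each). KO minus WT on the log2 scale was −0.37 (standard error 0.12, 95% interval −0.64 to −0.089), with an unadjusted p of 0.0149 and an adjusted p of 0.742 from edgeR, and was −0.34 within b1 and −0.39 within b2.

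*Grb10* (ENSMUSG00000020176.17, chr11:11930508-12038683, minus strand) is read from the maternal copy in most tissues and from the paternal copy in neurons. It had 197, 215, 103 and 132 CPM in lines KO1, KO9, KO15 and KO25, and 95.3, 73.5, 116 and 117 CPM in lines WT7, WT12, WT17 and WT34. The 2 b1 KO lines stood above all other lines, and the 2 b2 KO lines overlapped with WT. The log2 fold change was 0.69 (standard error 0.24, 95% interval 0.15 to 1.23), with an unadjusted p of 0.0175 and an adjusted p of 0.777 from edgeR. Within b1 it was 0.96 with an adjusted p of 0.0369, making *Grb10* the only member of the 10 called there, where 0.109% of 17500 genes were called. Within b2 it was 0.31 (adjusted p = 0.999), where 0 of the 10 were called and 0.0289% of 17285 genes. The test of the difference between the effects gave −0.65 (standard error 0.30, unadjusted p = 0.0584, adjusted p = 1.00, edgeR), so the effects are not shown to differ.

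*Plagl1* (ENSMUSG00000019817.18, chr10:13060504-13131694, plus strand) is on the same chromosome as *Tet1*, 49.7 Mb away. It had 2.20, 3.21, 3.17 and 3.94 CPM in lines KO1, KO9, KO15 and KO25, and 4.51, 2.79, 2.21 and 2.62 CPM in lines WT7, WT12, WT17 and WT34. The groups overlapped over nearly their whole range. The difference of KO from WT was, in log2 units, 0.04 (standard error 0.28, 95% interval −0.60 to 0.68, adjusted p = 0.998, edgeR). These levels rest on 37 to 82 counts per library.

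*Zdbf2* had the widest spread of the 9 genes tested, and its lines separated by column suffix. *Zdbf2* (ENSMUSG00000027520.15, chr1:63273265-63314576, plus strand) is paternally expressed and promotes growth after birth. It had 60.5 and 38.4 CPM in KO1 and KO9, 93.6 and 114 in WT7 and WT17, 248 and 130 in KO15 and KO25, and 260 and 262 in WT12 and WT34. Both KO lines were below both WT lines within each suffix, and every b1 line was below every b2 line. Its within-group SD was 1.01 on the log2 scale, at the 94.9th percentile of all genes tested, against a median of 0.29 over all genes. KO minus WT on the log2 scale was −0.61 (standard error 0.56, 95% interval −1.88 to 0.65, adjusted p = 0.998) over all lines and −0.76 (standard error 0.22, unadjusted p = 0.0065, adjusted p = 0.236) with the suffix as a block, both from edgeR. It was −1.07 within b1 and −0.46 within b2. Leaving out single lines moved it between −1.26 and −0.33, the former without KO15 and the latter without KO9. *Platr12*, at the upstream *Zdbf2* start, averaged 1.63 ± 0.393 CPM over KO and 2.10 ± 0.452 CPM over WT lines (SD, n = 4 each), with overlap (log2 difference −0.36, adjusted p = 0.998).

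Both KO lines were below both WT lines within each suffix for 3 of 9 genes (*Zrsr1*, *Nespas* and *Zdbf2*), against 6.08% of all genes tested. This count was chosen after the values had been seen.

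Lines of different suffix differed in more of these genes than KO and WT lines did. With genotype in the model, 4 of 9 genes were called between b2 and b1 lines, where 24.6% of all genes tested were called. *Zdbf2* was higher in b2 by 1.63 on the log2 scale (adjusted p = 0.0012, edgeR) and its mean was 2.93-fold higher. *H13* was higher by 0.80 (adjusted p = 0.0038) and *Zrsr1* by 0.48 (adjusted p = 0.0325), while *Gnas* was lower (log2 difference −0.26, adjusted p = 0.0339). *Zdbf2* and *H13* kept their calls under all 11 alternatives tried. *Zrsr1* and *Gnas* each lost the call under 6 of 11, including without KO1, KO9, KO15, KO25 or WT17 for both. b1 and b2 lines did not overlap in 4 of 9 genes, which were the same 4 as those called, against 26.3% of all genes tested. *Grb10* had a log2 difference of −0.49 (adjusted p = 0.0724) and was called under 3 of 11 alternatives, namely without WT34 (−0.70, adjusted p = 0.0052), by library size alone (−0.55, 0.0465) and by DESeq2 (−0.49, 0.0174). The genotypes are balanced over the suffixes, so the suffix and the genotype can be told apart, but what distinguished the b1 from the b2 columns is not given in the sources used here.

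**Figure D4:**
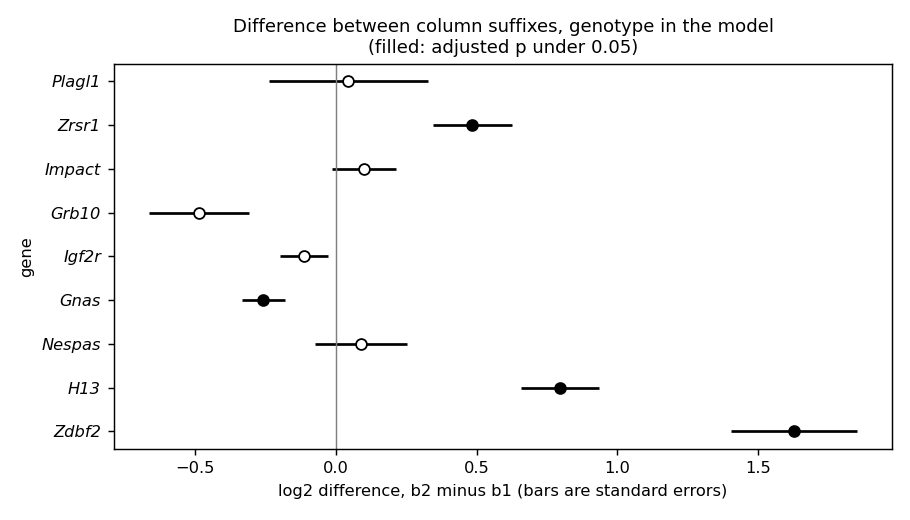
Log2 difference of b2 against b1 lines (horizontal axis, bars are standard errors, genotype in the model) for the 9 genes tested; filled points have an adjusted p under 0.05. *Zdbf2* lies farthest from 0 at 1.63, and *Gnas* is the filled point below 0.

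Genes in the pathways of the 10 and beside them were compared in the same fit, and 0 genes of these lists were called. Each list is given by its counts beside the all-gene median of −0.0044. Of 18 genes next to the imprinted loci, 12 were tested, 7 positive and 5 negative, with a median of 0.053, and 0 had an unadjusted p under 0.05. The smallest unadjusted p belonged to *Osbpl1a*, beside *Impact*, and *Phactr2*, beside *Plagl1*. Their log2 differences were 0.28 (unadjusted p = 0.136, edgeR) and 0.34 (unadjusted p = 0.157, edgeR). *Hrh4* and *Slc22a2* had 0 counts in every library, and *Slc22a3*, which *Airn* silences in the placenta together with *Slc22a2*, averaged 0.332 CPM over KO and 0.239 CPM over WT lines and did not pass the filter. Of 8 genes tested at other germline-methylated loci, 5 were positive and 3 negative (median 0.062), led by *Rasgrf1* (0.81) and *Nap1l5* (−0.74). Both were low and overlapped between genotypes. *Rasgrf1* averaged 0.963 CPM over KO and 0.539 CPM over WT lines, and *Nap1l5* 0.892 and 1.49 CPM.

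Paternally expressed genes elsewhere in the genome had mostly negative values. Of 16 tested, 14 had a negative log2 fold change, the median was −0.51 and 5 had an unadjusted p under 0.05, against 5.62% of all genes tested. Several genes of this list share an imprinted domain, so they do not count as independent observations. *Zim1* stood in this list and in the maternal one, and without it 13 of 15 were negative, with a median of −0.52. *Mest* had −0.56 (adjusted p = 0.263, edgeR) and *Nnat*, a neuronal membrane proteolipid gene, −0.94 (adjusted p = 0.358, and 0.0389 with the suffix as a block). DESeq2 called both (adjusted p = 0.0037 and 0.0097) and also *Usp29* (−1.51, adjusted p = 0.0372 by DESeq2 and 0.571 by edgeR), which makes 3 of the list. This list was compiled with earlier results on some of these genes known. Of 11 maternally expressed genes tested, 3 were positive and 8 negative, with a median of −0.13, led by *H19* (−1.71, adjusted p = 0.842) and *Zim1* (−0.43). *H19* varied widely between lines, from 9.28 to 75.1 CPM in WT and from 3.27 to 12.5 CPM in KO, with overlap. *Zim1* was low, at 0.997 CPM over KO and 1.34 CPM over WT lines. Of the genes described here, *Zrsr1*, *Impact*, *Nespas* and *Zdbf2*, all read from the paternal copy, had negative values, *Plagl1* 0.04, and *Airn* did not pass the filter over all lines. Among the remaining genes, *Igf2r* (−0.01) and *H13* (−0.04) were also negative, while *Gnas* (0.13) and *Grb10* (0.69) were positive.

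The IGF and insulin pathway, on which *Igf2r* and *Grb10* act, had 15 genes tested, 12 positive and 3 negative, with a median of 0.12. An unadjusted p under 0.05 (edgeR) was reached by 3 of the 15, against 5.62% of all genes tested. Summed over the 16 genes of the list, levels were 972 to 1125 CPM per KO line and 946 to 963 CPM per WT line, without overlap. The largest part of that sum was *Igfbp2*, which averaged 315 CPM over KO and 267 CPM over WT lines, also without overlap. Among single genes, 4.19% of all tested had no overlap, and no such share was computed for sums. *Igfbp5*, which encodes an IGF binding protein, averaged 41.0 CPM over KO and 21.5 CPM over WT lines (log2 difference 0.93, adjusted p = 0.349 by edgeR and 0.0044 by DESeq2). *Grb14*, an adaptor of the same family as *Grb10*, had 0.56 (adjusted p = 0.706). *Igf2*, the ligand, averaged 5.06 CPM over KO and 6.23 CPM over WT lines.

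Downstream of the *Gnas* product, 7 of 17 genes of cAMP signalling were positive and 10 negative (median −0.036). The adenylyl cyclase genes *Adcy3* (0.47, adjusted p = 0.579) and *Adcy6* (0.72, adjusted p = 0.622) had the smallest p. In the GCN2 pathway, on which IMPACT acts, 10 of 10 genes were positive with a median of 0.10, and 0 had an unadjusted p under 0.05. *Atf4* had 0.18 and *Trib3* 0.15. Genes of 3′ splice site recognition, the pathway of the *Zrsr1* relatives, had values between 0.0012 and 0.047, including *U2af1* (0.047) and *U2af1l4* (0.042). Of 8 genes of signal peptide peptidases and ER-associated degradation, 1 was positive, *Sppl2a* (0.30, unadjusted p = 0.0256, edgeR), and 7 were negative, among them *Syvn1* (−0.19). The PLAG family and its targets had 5 positive and 4 negative genes of 9 tested (median 0.0084), led by *H19* and *Igf1r* (0.27).

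The genes whose log2 CPM followed each of the 9 most closely over the 8 lines were found by Pearson's r among all genes tested, as a description, since the lines share genotype and suffix. *Zdbf2* was most like *Zfp780b* (r = 0.994), *Ciao3* (0.993) and *Pip5k1c* (0.991), and *H13* was most like *Hspd1-ps4* (0.984). *Gnas* was most like *Ints10* (0.985), *Impact* most like *Zbtb34* (0.979) and *Igf2r* most like *Fuom* (0.977). *Zrsr1* was most like *Crb2* (0.974), *Grb10* most like *Cd79a* (0.970), *Nespas* most like *Tcea3* (0.960) and *Plagl1* most like *Vmn2r90* (0.936). None of these genes is another of the 10.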

How the data were processed

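RNA was measured in 8 EpiLC libraries, 1 per line, and each line was mapped to its genotype by the labels. Titles were used for WT12 and WT17, whose cell line labels read WT9 and WT12. The paper's methods name trimming with Trim Galore 0.6.4, quantification with Salmon 0.14.1 and summary per gene with tximport, and the submitters' processing notes name mm10. The authors deposited estimated counts and, separately, TPM of the same quantification.

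Rounding the deposited estimated counts to integers moved 27.8% of them, by no more than 0.5. Genes passing filterByExpr were compared by the quasi-likelihood test of edgeR 4.0.16 (R 4.3.3) with TMM factors, p-values were adjusted by Benjamini-Hochberg over the 17272 genes tested, and an adjusted p under 0.05 was called. CPM are scaled to the TMM-adjusted library size, and 205 genes without a symbol stayed in the fit under their gene IDs. With 1 library per line, p-values measure the spread between lines, cultures and libraries together. Pair ratios were compared by exact permutation of the lines (70 assignments, two-sided). Positions are from GENCODE M21, which holds 53544 of the 54281 IDs under the same version. The code was tested on simulated data.

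Alternatives were DESeq2 1.42.0 as test or for size factors, library size alone, other filters on low counts, limma 3.58.1 on log2(TPM + 1) and log2(TPM + 0.1) for genes with a mean of at least 1 TPM, the suffix as a block, each suffix alone, each line left out, other pseudocounts and permutation within the suffix. The 10 genes and all lists were chosen with earlier results of these data known. Named genes are the 10, their partners in the 4 pairs, up to 2 genes per list with the smallest p, every list gene called by edgeR, the genes most correlated with each of the 10, and *Tet1*. *Usp29*, *Sox7*, *Sox17*, *Dab2*, *Dnmt3b*, *Igfbp2*, *Slc22a3*, *Igf2*, *Postn*, *Hrh4* and *Slc22a2* were named in addition. A count limit of 3 and all intervals cover counting or line-to-line error only.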

Additional observations from a re-analysis of the deposited data

Results flagged for a closer look

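*Igf2r* in WT34 stood apart from the other WT lines, with 140 CPM against 167 to 169 CPM, a gap of 0.941 of the group's whole range, which is above Dixon's critical value at the 95% level for 4 samples. Of 32 groups of 4 lines checked this was the only one marked, and chance marks about 1 in 20. WT34 carries the suffix b2. Without WT34 the KO against WT log2 difference of *Igf2r* was −0.072 (adjusted p = 0.999, edgeR).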

How the results depend on the processing

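Genes called between KO and WT numbered 7, and 105 by DESeq2, 2 and 3 by limma on log2(TPM + 1) and log2(TPM + 0.1), 28 with the suffix as a block and 19 in b1 alone. Of the 10 genes, 1 was called by DESeq2 (*Nespas*) and 1 in b1 alone (*Grb10*); of the list genes, 4 by DESeq2 and 1 with the block (*Nnat*). The cause of these differences was not tested. *Nespas*, *Impact*, *Zrsr1*, *Zdbf2*, *Grb10* and *Gnas* kept the sign of their KO against WT difference under all 18 alternatives. *Plagl1* was −0.31 in b1 alone and −0.086 to 0.30 with lines left out. *Igf2r* was 0.0051 without a filter, 0.013 in b2 alone and −0.072 to 0.057 with lines left out. It was lowest by limma, at −0.216 on log2(TPM + 1) and −0.225 on log2(TPM + 0.1). *H13* was 0.0019 with the block, 0.18 in b1 alone and −0.23 to 0.15 with lines left out.

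Between b2 and b1, 2655 (without KO9) to 4807 (without WT12) genes were called with lines left out, 2763 without WT7, and 2 to 4 of the 10 genes. *Plagl1* was −0.011 by library size alone and −0.13 to 0.35 with lines left out, and *Impact* −0.034 to 0.22. For the difference of the KO effect between suffixes, 0 genes were called by edgeR (227 at an unadjusted p under 0.05), 2 by DESeq2 and 0 to 8 with lines left out, with 8 without WT34. *Impact* there was −0.39 to 0.20 and *Igf2r* −0.14 to 0.19, and −0.0014 by library size alone. With lines left out, the log2 ratio difference was −0.70 to 0.40 for *Igf2r* over *Airn*, −0.097 to 0.36 for *H13* over *Mcts2*, 0.76 to 1.03 for *Gnas* over *Nespas* and 0.29 to 0.68 for *Commd1* over *Zrsr1*, where it was lowest without KO1. Permuting within the suffix, the smallest p possible is 0.0556.

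No paired analysis was possible because KO and WT lines share no number in the labels and, although the lines come as littermate pairs, the matching of KO to WT lines is not spelled out in the sources used here. Depth limits *Airn*, at 0 to 10 counts per library, and *Plagl1*.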
